A study of Rattus norvegicus with 8 samples.

Results

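Slice cultures are thin sections of rat hippocampus that are maintained in vitro. This comparison set the control cultures numbered 3 in their titles (set 3) against the control cultures numbered 1 (set 1). The arrays were chosen by that title number and by the word control, which gave 4 of the 8 arrays of the series. Each set holds 1 array of CA1 and 1 array of CA3, the main pyramidal cell fields, so there were 2 arrays a side. The controls numbered 2 (set 2) are shown beside them, as are the 2 lesion arrays, which carry the number 1. Per the labels, every array holds total RNA from 15 subdissected cultures and a time of 7 days. The pooling of 15 cultures means that an array gives no spread between cultures. The labels give no strain, sex, age or genotype, no kind of lesion, and no meaning for the title number.

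Slicing cuts axons and vessels, and in the days that follow the glial cells of the explant respond. Microglia, the resident macrophages of the brain, take up debris and make complement proteins such as C1q and C3, which tag material for removal. Astrocytes turn reactive and secrete acute phase proteins such as Lcn2, oligodendrocytes wrap axons in myelin, and neurons with cut axons turn on regeneration genes such as Sprr1a.

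Field markers separated the arrays labelled CA1 from those labelled CA3. The CA1 list of field markers was higher in each CA1 array than in the CA3 array of its set, with a median over its 8 measured members of 1.46, 1.12 and 0.75 above the set 1 mean in CA1 of sets 1, 2 and 3, and of -1.46, -1.29 and -2.31 in CA3 (log2 scale, as are all differences here). The list of CA3 and CA2 markers went the other way in all 3 sets. Neuronal Snap25 lay between 16.28 and 17.39 and astrocytic Gfap between 18.07 and 18.87 in all 6 control arrays, on the scale log2(intensity + 16). The correlation of the CA1 with the CA3 array was 0.877, 0.856 and 0.891 in sets 1, 2 and 3. The median intensity of the control arrays ranged from 560 to 814. The ratio of the 3′ to the 5′ probe set of Gapdh, a sign of RNA length, was 3.71 and 3.84 in set 1, 4.98 and 3.75 in set 2, and 5.0 and 3.93 in set 3. For beta-actin the ratio was high in every array, at 14.5 and 21.4 in set 1, 22.2 and 20.3 in set 2, and 18.3 and 15.0 in set 3. The role of RNA quality in the differences was not tested.

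Across the 31042 probe sets, 852 differed between set 3 and set 1 with an adjusted p under 0.05 in limma's fit. Of these, 532 were higher in set 3, which is 1.71% of those tested, and 320 were lower, which is 1.03%. Past a 4-fold difference, 138 of the called probe sets were higher and 10 were lower. Counting each gene by its brightest probe set, 409 of 14217 genes were called higher (2.88%) and 221 were called lower (1.55%). The median difference of all these genes was -0.01, on arrays that the authors had scaled to a common level. Both set 3 arrays lay above both set 1 arrays in 3144 genes (22.1%) and below them in 2935 genes (20.6%), so a gene whose arrays do not overlap is not by itself unusual here.

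The calls rest on few arrays. The fit has 2 residual degrees of freedom, and most of its error estimate is borrowed from other probe sets of like brightness. When the error was borrowed without regard to brightness, no probe set passed the threshold, and 2481 had an unadjusted p under 0.05 against 3798 in the fit used here. Scaling the arrays to a common median left 336 calls, of which 87.5% were higher, against 62.4% here. Nothing in the labels says that the sets came from separate animals or preparations, so the p-values reflect the spread among these arrays alone, and that spread may be technical. The set is fully described by its number, and preparation, handling and array processing cannot be told apart within it. The lesion arrays, numbered 1, had microglial list medians of 3.18 and 2.99 above the set 1 controls, close to set 3. Whether the title numbers and conditions are right was not tested, and every difference is between the arrays labelled 3 and 1.

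**Figure D1:**
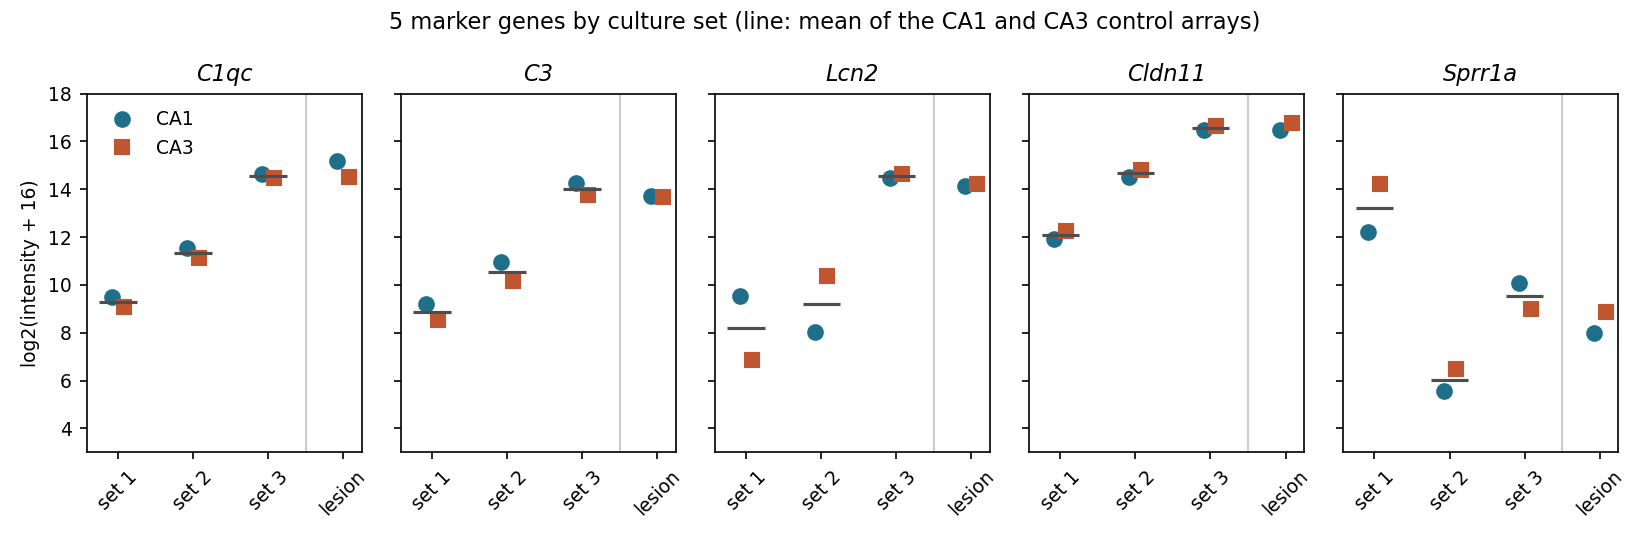
The plot shows log2(intensity + 16) of C1qc, C3, Lcn2, Cldn11 and Sprr1a in every array by culture set, with CA1 as circles, CA3 as squares and the mean of the control arrays of a set as a line. The first 4 genes sit highest among the controls in set 3, where the means of C1qc, Lcn2 and Cldn11 are 14.56, 14.55 and 16.55 against 9.29, 8.20 and 12.09 in set 1, whereas Sprr1a is highest in set 1, with a mean of 13.20.

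Genes of microglia and macrophages were much higher in set 3. Of the 23 measured members of that list, 14 were called higher and none lower, and the median difference was 2.97, or 7.83-fold, beside a median of -0.01 over all genes. Both set 3 arrays lay above both set 1 arrays for 22 of the 23, against the 22.1% of all genes given above. Within each field the median difference was 3.35 in CA1 and 2.86 in CA3. Set against the mean of both set 1 arrays, the medians of set 3 were 3.03 in CA1 and 2.85 in CA3. Set 2 lay between, at 0.85 and 0.77. In pooled tissue, more cells of a type and more RNA per cell cannot be told apart.

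C1qc encodes a chain of C1q, the recognition molecule of the classical complement pathway. Its log2 level was 9.51 in CA1 and 9.07 in CA3 of set 1, 11.55 and 11.10 in set 2, and 14.64 and 14.47 in set 3. The 3 sets did not overlap, and the fields of a set lay close together. The difference between sets 3 and 1 was 5.27 ± 0.23 (SE), a 38.5-fold change with an adjusted p of 1.01e-10.

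The other C1q chains moved in the same way. C1qa stood at 9.78 and 9.24 in set 1 and at 14.53 and 14.16 in set 3, a difference of 4.83 ± 0.23. C1qb differed by 4.02 ± 0.32. The 3 genes are consecutive coding genes in the RefSeq table of the rat assembly GRCr8, in the order C1qb, C1qc, C1qa.

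Other macrophage genes also rose. Laptm5, a lysosomal membrane protein of blood-derived cells, was 6.91 and 7.62 in set 1 and 13.44 and 13.06 in set 3, a difference of 5.98 ± 0.40. A second probe set of it was higher by 3.11. The low-affinity IgG receptor Fcgr2b rose by 5.28 ± 1.11 (adjusted p = 0.0122), a call lost without either array of set 3, and the beta-glucan receptor Clec7a by 5.04 ± 0.68. Cd68, a macrophage lysosomal glycoprotein, rose by 3.88 ± 0.34, the protease Ctss by 3.47 ± 0.23, the receptor subunit Fcer1g by 3.30 ± 0.22 and lysozyme, Lyz2, by 3.02 ± 0.19. Members that did not pass included Itgam, with a difference of 3.60 ± 1.23 (adjusted p = 0.167), and Ptprc, at 3.54 ± 1.26 (adjusted p = 0.197), which are dim on these arrays.

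The microglial genes did not all follow. Among 8 measured genes of the resting, homeostatic state, only Csf1r passed, the receptor that microglia need to survive, with a difference of 2.40 ± 0.29. Tmem119 was 9.62 and 10.12 in set 1 and 9.84 and 10.27 in set 3, a difference of 0.19 ± 0.57. Cx3cr1, the fractalkine receptor, differed by 2.56 in CA1 and by -2.16 in CA3. The brightest probe set of P2ry12 differed by 1.45 ± 1.22 and a dimmer one by 4.16 ± 1.25 (adjusted p = 0.1), so neither passed. The list's median was 0.63.

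Genes of lipid handling and phagocytosis in activated microglia were called higher in 10 of 18 cases and lower in none, with a median of 0.76. Besides Clec7a, Trem2, a lipid receptor, rose by 3.30 ± 0.84 (adjusted p = 0.0415), osteopontin, Spp1, by 2.43 ± 0.24, and the growth factor Igf1 by 2.27 ± 0.31. Gpnmb and the galectin Lgals3, already bright in set 1, rose by 1.56 ± 0.16 and 1.24 ± 0.16. The lipoprotein Apoe, at 17.66 and 17.47 in set 1, differed by 0.30 ± 0.21 and did not pass. Of the 10 calls, 5 held without the CA1 array of set 3 and 3 without its CA3 array. Trem2 was lost in both cases, and Clec7a and Igf1 in the second. Trem2 was also lost without the CA1 array of set 1. Abca1, a cholesterol exporter, differed by -0.65 ± 0.20 on its brightest probe set (adjusted p = 0.123).

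Complement genes were called higher in 10 of 18 cases and lower in none, with a median of 1.91. C3, on which the complement pathways meet, was 9.19 in CA1 and 8.55 in CA3 of set 1, 10.94 and 10.17 in set 2, and 14.24 and 13.77 in set 3. As with C1qc, the 3 sets did not overlap. The difference was 5.14 ± 0.29, or 35.2-fold, with an adjusted p of 1.94e-09. C5ar1, the receptor for the C5a fragment, rose by 4.14 ± 0.71 (adjusted p = 0.0023). The C1 proteases C1s and C1r rose by 1.95 ± 0.18 and 1.72 ± 0.21, and their inhibitor Serping1 by 1.86 ± 0.23. The inhibitors of late complement steps rose less, Clu by 0.98 ± 0.20 and Cd59b by 0.65 ± 0.16. The calls of C5ar1, Clu and Cd59b were lost without either array of set 3, which left 7 of 10. C6, a late component, differed by -2.69 ± 1.25 and did not pass (adjusted p = 0.394).

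Lysosomal genes were called higher in 12 of 20 cases, and all 20 had a difference above 0, with a median of 0.76. Ctsz, Ctsl, Ctsc and Ctsh, all cathepsins, rose by 2.51 ± 0.27, 1.44 ± 0.16, 1.33 ± 0.24 and 1.13 ± 0.16. Ctsd, another cathepsin, differed by 0.19 ± 0.16 and did not pass. The lysosomal count was less firm than its direction. Of the 12 calls, 5 held without the CA1 array of set 3, 4 without its CA3 array and 5 under scaling to a common median, with Ctsc lost without either array. The 5 lists on microglia, phagocytosis, complement and lysosome together hold 79 different genes, of which 40 were called higher, or 9.8% of the 409 genes called higher.

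**Figure D2:**
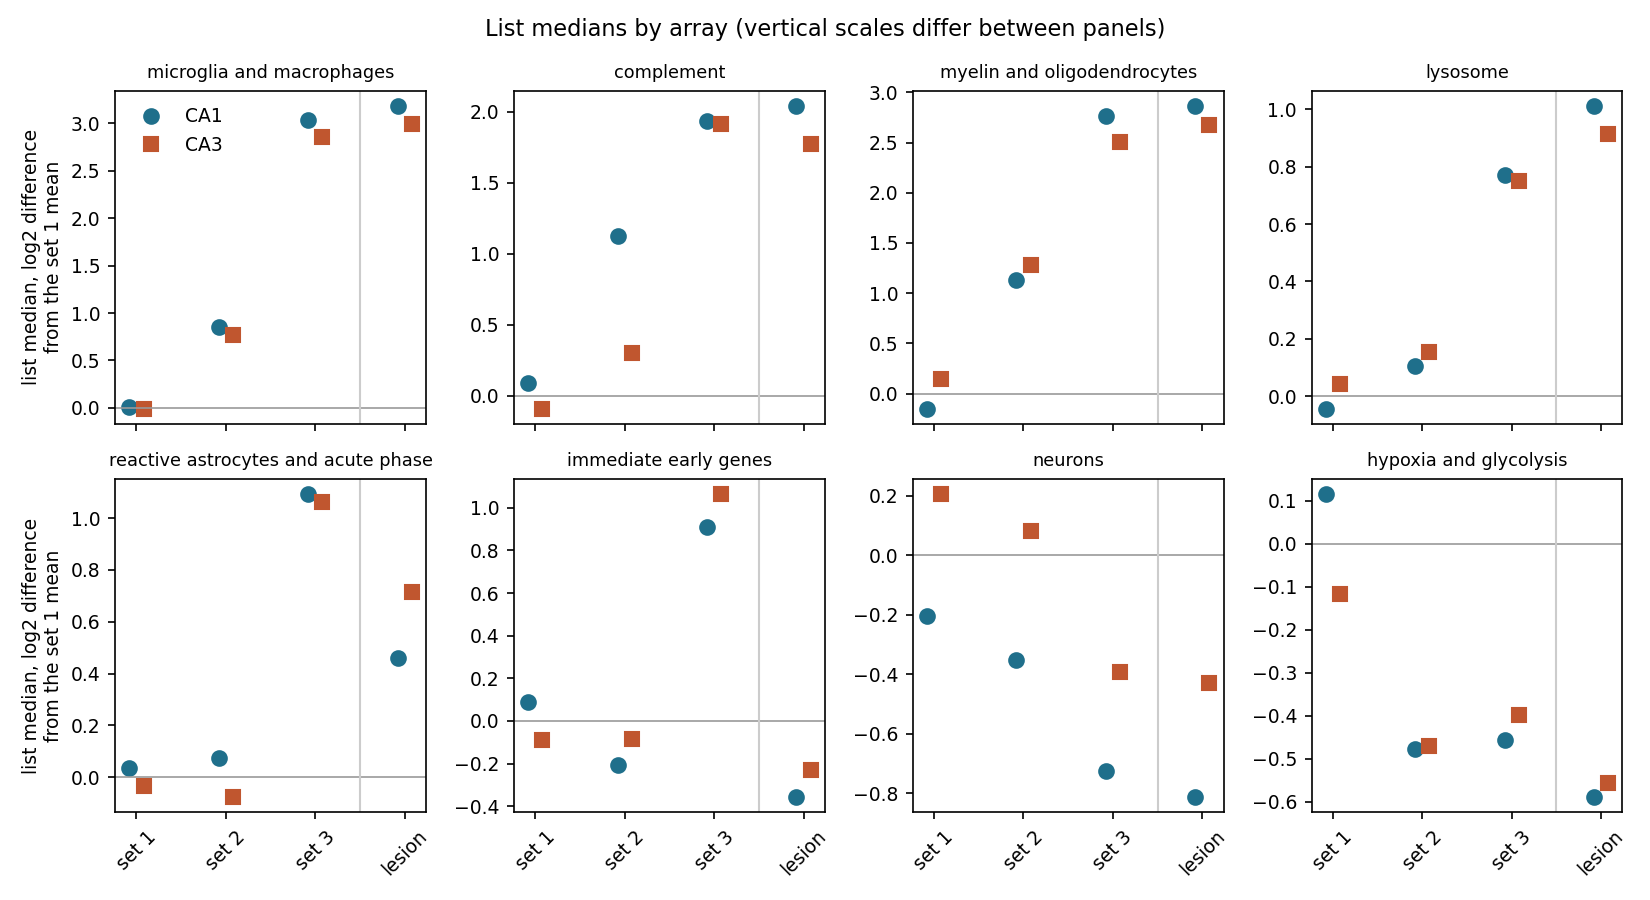
Each panel gives the median of a gene list in every array, as a log2 difference from the set 1 mean, with CA1 as circles and CA3 as squares. The microglial list stands at 0.85 and 0.77 in set 2 and at 3.03 and 2.85 in set 3, while the immediate early genes stand at -0.21 and -0.08 in set 2 and at 0.91 and 1.06 in set 3. Hypoxia and glycolysis genes lie at -0.48 and -0.47 in set 2 and at -0.46 and -0.40 in set 3.

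Signalling genes of inflammation rose in part. Of 26 chemokines and cytokines, 8 were called higher and none lower. Ccl6 was 10.01 in both set 1 arrays, 11.53 and 11.98 in set 2, and 13.95 and 14.38 in set 3, a difference of 4.16 ± 0.22. Ccl2, which attracts monocytes, was 11.93 and 11.14 in set 1, 10.39 and 9.97 in set 2, and 14.23 and 14.68 in set 3, so that set 2 was lowest. The difference was 2.92 ± 0.26. Its neighbour in the genome, Ccl7, rose by 2.93 ± 0.54, the neutrophil attractant Cxcl1 by 2.77 ± 0.35, and Ccl3 by 2.93 ± 0.71 (adjusted p = 0.0307). Il33, an alarm cytokine of glia, rose by 1.53 ± 0.26. Of the 8 calls, 4 held without the CA1 array of set 3 and 3 without its CA3 array, with Ccl3, Ccl7 and Il33 lost in both cases. Ccl3 was also lost without the CA3 array of set 1, when it was 1.38. The list's median of 0.83 dropped to 0.10 without the CA3 array of set 3. The classical inflammatory cytokines did not pass. Tnf differed by 0.05 ± 1.03, Il1b by 1.12 ± 1.13 and Il6 by 0.71 ± 1.18, with wide errors because their probe sets are dim.

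Interferon response genes were called higher in 5 of 22 cases, with a median of 0.95. Rsad2 rose by 2.93 ± 0.59, the immunoproteasome subunit Psmb8 by 2.13 ± 0.26, Gbp2 by 1.48 ± 0.22, Ifi27 by 1.23 ± 0.15 and Ifitm3 by 0.88 ± 0.16. Without the CA3 array of set 3 only the calls of Psmb8 and Ifi27 held, and without its CA1 array Rsad2 was lost. Of 17 antigen presentation genes, 2 were called higher, Psmb8 and RT1-DMb, which helps load class II molecules and rose by 2.83 ± 0.31. B2m, the light chain of class I, differed by 0.55 ± 0.20 and did not pass (adjusted p = 0.201).

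Myelin genes were the other large group. Of 29 measured members, 17 were called higher and none lower, and the median difference was 2.68, or 6.39-fold. In 26 of them both set 3 arrays lay above both set 1 arrays, against 22.1% of all genes. The medians over the set 1 mean were 1.13 and 1.28 in set 2 and 2.77 and 2.50 in set 3, so set 2 again lay between. The 17 genes were 4.2% of all genes called higher.

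Cldn11 encodes the claudin that seals the layers of the myelin sheath. Its level was 11.94 in CA1 and 12.23 in CA3 of set 1, 14.51 and 14.81 in set 2, and 16.46 and 16.63 in set 3. The sets did not overlap. The difference of 4.46 ± 0.15, or 22.1-fold, had the smallest p of all named genes (adjusted p = 6.32e-12). A dimmer probe set of Cldn11 gave 3.30 ± 1.22 and did not pass (adjusted p = 0.223).

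Proteins of compact myelin followed. Mobp was 11.81 and 12.17 in set 1 and 16.36 and 16.03 in set 3, a difference of 4.21 ± 0.18. Mbp, among the brightest myelin genes, was 15.54 and 15.96 in set 1, 17.76 and 17.57 in set 2, and 18.75 and 18.11 in set 3, a difference of 2.68 ± 0.23. Pllp rose by 4.58 ± 0.38 and Mal by 3.13 ± 0.42, both membrane proteins of the sheath. Mog and Mag, on the outer and the inner face of the sheath, rose by 3.04 ± 0.37 and 2.68 ± 0.26.

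Enzymes and regulators of the lineage moved with them. Ugt8, which makes the myelin lipid galactosylceramide, rose by 3.96 ± 0.68, and Cnp by 2.70 ± 0.17. Further members of the myelin list rose as well, Evi2a by 4.76 ± 0.31, Bcas1 by 4.16 and Apod by 2.67. Myrf, the transcription factor that turns on myelin genes, rose by 1.49 ± 0.34 (adjusted p = 0.0228). The calls of Ugt8 and Myrf were lost without either array of set 3, and that of Mal without its CA1 array. The early factors did not pass. Olig1 differed by 0.21 ± 0.23 and Olig2 by -1.72 ± 1.34. Of 12 genes of oligodendrocyte precursors, only Pdgfra was called, at 8.76 and 11.27 in set 1 and 11.57 and 12.25 in set 3, a difference of 1.90 ± 0.39 with an adjusted p of 0.0095. The CA3 array of set 1 was close to the CA1 array of set 3, and the call was lost without the CA1 array of set 1, when the difference was 1.0, and without the CA1 array of set 3. The precursor list had a median of 0.23.

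Cholesterol, which myelin contains in large amounts, is made by a pathway whose genes did not rise. None of 18 was called higher and 3 were called lower, Fdft1 by -1.03 ± 0.18, Tm7sf2 by -0.76 ± 0.18 and Fdps by -0.70 ± 0.16. All 3 calls were lost under scaling to a common median and without the CA1 array of set 3, and 1 held without its CA3 array. The list's median was -0.29. Scd, a desaturase of fatty acid synthesis, fell by 1.76 ± 0.30, a call lost without the CA3 array of set 3.

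**Figure D3:**
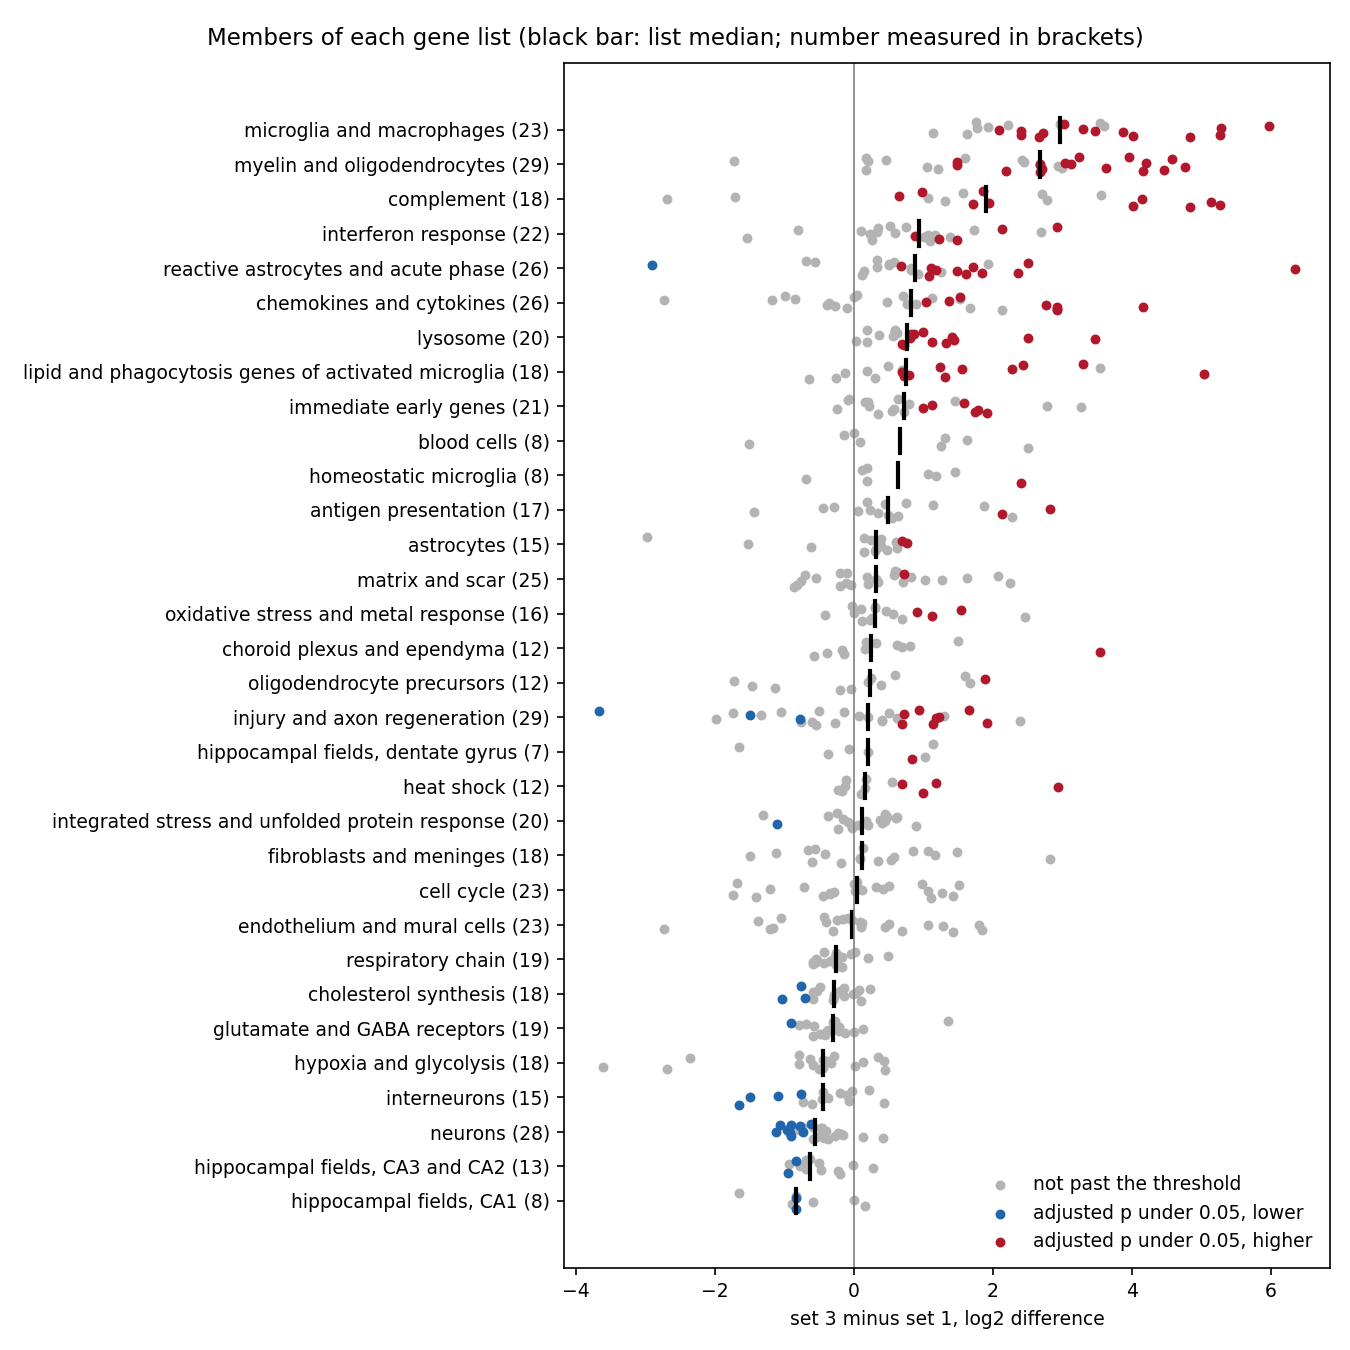
Every point is a gene, placed by its log2 difference between set 3 and set 1, with red for genes called higher, blue for genes called lower, grey for the rest and a black bar for the median of the list. Microglial and myelin lists lie furthest to the right, with medians of 2.97 and 2.68, and the CA1 field list furthest to the left, with a median of -0.83.

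Lcn2, lipocalin 2, is an iron-binding acute phase protein secreted by reactive astrocytes. Its level was 9.54 in CA1 and 6.86 in CA3 of set 1, 8.04 and 10.38 in set 2, and 14.46 and 14.65 in set 3. Sets 1 and 2 overlapped, and set 3 stood far above both. The difference of 6.35 ± 0.69, or 81.5-fold, was the largest of the named genes, and it was 4.91 in CA1 and 7.79 in CA3 (adjusted p = 1.75e-05). Without the CA1 array of set 1 the difference rose to 8.32, and without the CA3 array of set 1 it was 4.38.

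Of 26 genes of reactive astrocytes and the acute phase, 11 were called higher and 1 lower, with a median of 0.88. Here set 2 did not lie between. Its medians were 0.07 and -0.08 above the set 1 mean, against 1.09 and 1.06 in set 3. Ceruloplasmin, Cp, rose by 2.37 ± 0.16, the metalloreductase Steap4 by 2.50 ± 0.61, Emp1 by 1.85 ± 0.24, S100a6 by 1.71 ± 0.24 and the hyaluronan receptor Cd44 by 1.61 ± 0.24. Second probe sets of Emp1 and Cd44 differed by -0.52 ± 1.20 and 0.89 ± 0.38, neither past the threshold. With a gene's probe sets averaged, 8 of the 12 calls held, and those of Emp1, Cd44, Steap4 and Nes were lost. Of the 12 calls, 8 held without the CA1 array of set 3 and 5 without its CA3 array, with Steap4 and Nes lost in both cases. Steap4 was also lost without the CA1 array of set 1 and Nes without its CA3 array. The filament genes that define reactive astrocytes showed less. Nes rose by 1.11 ± 0.27, Vim differed by 0.34 ± 0.20 and Gfap by 0.15 ± 0.26, with 0.64 in CA1 and -0.34 in CA3.

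Serpina3n, an acute phase protease inhibitor, went the opposite way to Lcn2. It was 12.88 in CA1 and 12.82 in CA3 of set 1, 7.75 and 8.99 in set 2, and 10.14 and 9.76 in set 3. It fell by 2.90 ± 0.45 (adjusted p = 0.000817), and set 2 was lower still. The call was lost without the CA3 array of set 3. Of 15 general astrocyte genes, Mlc1 and S100b were called higher, by 0.77 ± 0.19 and 0.69 ± 0.18, and the median was 0.32. Both astrocyte calls were lost without any one array of sets 2 or 3 and under scaling to a common median, and each passed in 8 of 18 alternatives.

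Injury and regeneration genes split. Of 29 measured, 8 were called higher and 3 lower, and the median of 0.21 was 0.11 in CA1 and -0.19 in CA3. Without the CA1 array of set 1 the median was -0.11, so the list has no settled direction.

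Sprr1a, a small proline-rich protein that injured neurons make while they regrow axons, was the strongest of those that fell. It was 12.19 in CA1 and 14.21 in CA3 of set 1, 5.56 and 6.48 in set 2, and 10.07 and 9.0 in set 3. Set 2 was lowest and set 1 highest, with no overlap between any of the sets. It fell by 3.67 ± 0.71, or 12.7-fold, with an adjusted p of 0.00687, and by 2.12 in CA1 and 5.21 in CA3. The call was lost without the CA3 array of set 1, when it fell by 2.62 and without the CA3 array of set 3, when it fell by 2.40. Both lesion arrays, at 8.01 and 8.85, lay below the set 3 arrays.

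Gap43, a growth cone protein, was 15.30 and 15.88 in set 1 and 14.63 and 14.99 in set 3, and fell by 0.78 ± 0.16. A dim probe set of it gave 1.76 ± 1.12. The neuropeptide Npy fell by 1.49 ± 0.19, from 15.36 and 14.65 to 13.57 and 13.47. The injury genes that rose were Atf3 by 1.92 ± 0.31, a transcription factor of injured cells, the receptor Tnfrsf12a by 1.67 ± 0.22, Klf6 by 1.22 ± 0.27, the small heat shock protein Hspb1 by 1.18 ± 0.18, Anxa1 by 1.14 ± 0.16, Stmn4 by 0.94 ± 0.18, Plat by 0.73 ± 0.19 and Anxa2 by 0.69 ± 0.16. Of the 11 injury calls, 5 held without the CA1 array of set 3, 3 without its CA3 array and 4 under scaling to a common median. Gap43, Atf3, Klf6, Stmn4, Plat and Anxa2 were lost without either array of set 3. Many of the genes that rose are also made by glia. Sox11, Gal and Arg1, further regeneration genes, did not pass.

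Promoters of 4 genes, picked after their values were seen, are given to set C1qb, C3 and Lcn2, which rose, beside Sprr1a, which fell. Each is the 250 bases before the transcription start in RefSeq's GRCr8, read 5′ to 3′ on the gene's strand, and capitals mark matches on either strand to a short motif. The motifs were GAGGAA for PU.1, a macrophage factor, in C1qb, TTGCNNAA for C/EBP and TTCNNNGAA for STAT, both acute phase factors, in C3 and Lcn2, and TGANTCA for AP-1 in Sprr1a.
C1qb (chr5:154407828-154408077, minus strand): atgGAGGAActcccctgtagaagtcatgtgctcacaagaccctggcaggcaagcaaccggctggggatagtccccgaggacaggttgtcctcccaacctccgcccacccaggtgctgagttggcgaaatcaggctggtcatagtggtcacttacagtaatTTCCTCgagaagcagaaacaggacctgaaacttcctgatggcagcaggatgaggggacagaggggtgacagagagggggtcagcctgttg
C3 (chr9:2201340-2201589, minus strand): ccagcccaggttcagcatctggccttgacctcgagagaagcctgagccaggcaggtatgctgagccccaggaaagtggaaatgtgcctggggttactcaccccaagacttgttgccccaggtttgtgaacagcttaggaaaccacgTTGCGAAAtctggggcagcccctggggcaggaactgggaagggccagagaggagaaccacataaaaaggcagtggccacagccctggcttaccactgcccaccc
Lcn2 (chr3:36081781-36082030, minus strand): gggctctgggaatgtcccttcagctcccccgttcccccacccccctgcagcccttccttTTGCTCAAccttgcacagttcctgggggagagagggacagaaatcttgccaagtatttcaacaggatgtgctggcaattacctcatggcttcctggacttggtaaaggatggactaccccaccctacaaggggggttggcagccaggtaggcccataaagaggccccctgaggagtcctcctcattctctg
Sprr1a (chr2:180752626-180752875, minus strand): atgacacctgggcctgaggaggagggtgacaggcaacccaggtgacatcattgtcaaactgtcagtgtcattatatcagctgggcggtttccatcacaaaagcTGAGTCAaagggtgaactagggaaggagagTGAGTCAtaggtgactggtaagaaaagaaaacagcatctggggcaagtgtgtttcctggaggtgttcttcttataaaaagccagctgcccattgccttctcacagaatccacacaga
The C1qb window held 2 PU.1 matches, the C3 and Lcn2 windows 1 C/EBP match each and no STAT match, and the Sprr1a window 2 AP-1 matches. Of 27457 rat promoters of this length, 23.2% held the PU.1 letters, 9.2% the C/EBP letters, 7.52% the STAT letters and 6.36% the AP-1 letters. A match describes letters only and shows no binding.

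Immediate early genes are switched on within minutes of a stimulus. Of 21 measured, 6 were called higher and none lower, with a median of 0.72. The medians were -0.21 and -0.08 in set 2, 0.91 and 1.06 in set 3, and -0.36 and -0.23 in the lesion arrays. Egr2 was 10.88 and 11.40 in set 1, 11.23 and 10.57 in set 2, and 13.10 and 12.76 in set 3, a difference of 1.79 ± 0.28. The phosphatase Dusp1 rose by 1.74 ± 0.35, the activin subunit Inhba by 1.58 ± 0.36 and the synaptic scaffold Homer1 by 1.13 ± 0.24. Of the AP-1 subunits, Fos rose by 1.00 ± 0.21, while Fosb (3.26 ± 0.91), Fosl1 (2.78 ± 0.85) and Jun (0.21 ± 0.16) did not pass. Of the 6 calls, 2 held without the CA1 array of set 3 (Dusp1 and Fos), 3 without its CA3 array (Egr2, Inhba and Homer1) and 1 with a gene's probe sets averaged. Dimmer probe sets of Egr2, Dusp1, Inhba and 3 of 4 of Homer1 had differences below 0, none of them past the threshold.

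Hspa1a, the inducible heat shock protein 70, behaved likewise. It was 10.73 and 10.66 in set 1, 10.41 and 10.36 in set 2, and 13.58 and 13.69 in set 3. The difference was 2.94 ± 0.24 (adjusted p = 4.79e-07), and the fields of each set lay close together. Of the 12 heat shock genes, 4 were called higher, with Cryab at 1.00 ± 0.21 and Hspa9 at 0.69 ± 0.17 beside Hspa1a and Hspb1, and the list's median was 0.16. Without the CA1 array of set 3 Hspa1a and Hspb1 held, and without its CA3 array Hspa1a alone. Hsph1, Dnajb1 and Bag3 did not pass.

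Of 16 genes of oxidative stress, 3 were called higher, the cystine transporter Slc7a11 by 1.54 ± 0.18, heme oxygenase Hmox1 by 1.12 ± 0.16 and Nqo1 by 0.90 ± 0.16. In the integrated stress and unfolded protein responses, 1 of 20 was called, Ddit4, which fell by 1.10 ± 0.20, a call lost without the CA1 array of set 3. The call of Nqo1 was lost without its CA3 array. Atf4 and Ddit3, core factors of that response, differed by -0.02 ± 0.16 and 0.07 ± 0.20.

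**Figure D4:**
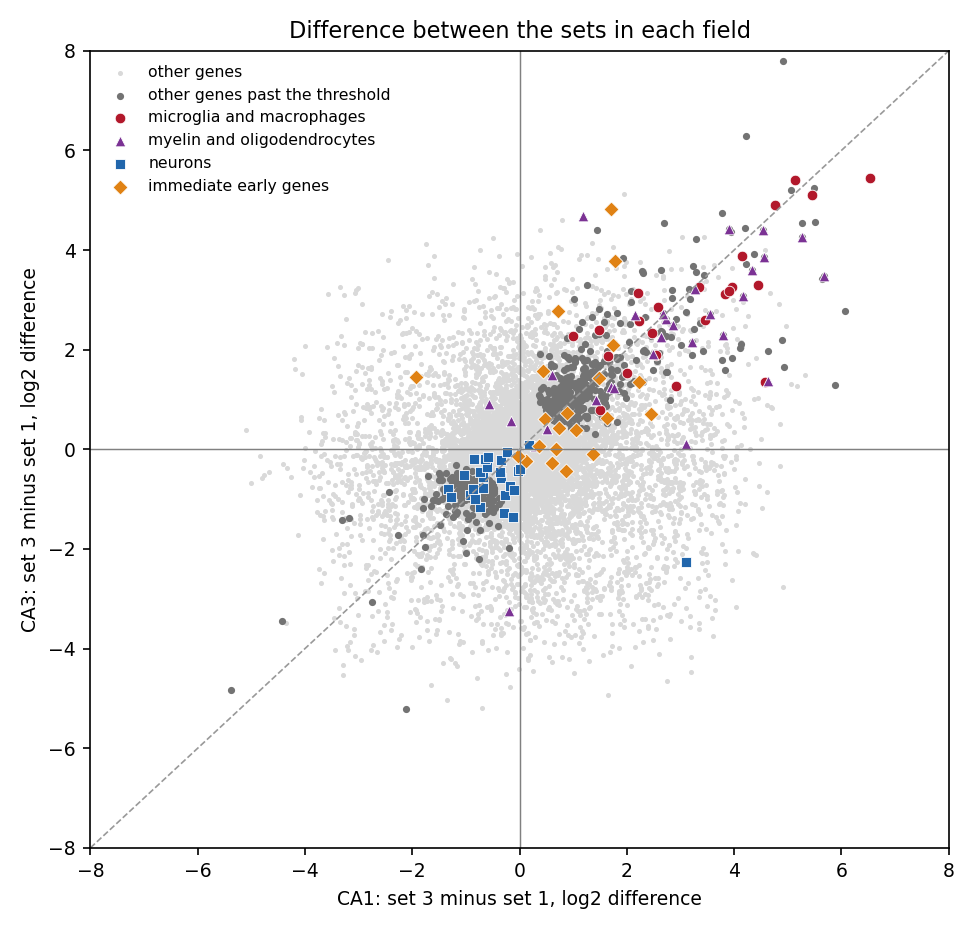
Each point is a gene by its brightest probe set, with the log2 difference between set 3 and set 1 in CA1 on the horizontal axis and in CA3 on the vertical axis; the dashed line marks equal differences. Microglial and myelin genes lie in the upper right, most neuronal genes just below and left of 0, and Lcn2 is the highest point, at 4.91 in CA1 and 7.79 in CA3.

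Neuronal genes were modestly lower. Of 28 measured, 9 were called lower and none higher, 26 had a difference below 0, and 18 had both set 3 arrays below both set 1 arrays, against the 20.6% of all genes. The median was -0.56, a 1.47-fold difference. Rbfox3, the nuclear marker NeuN, was 12.30 and 12.50 in set 1, 12.01 and 11.98 in set 2, and 11.02 and 11.55 in set 3, and fell by 1.11 ± 0.23. Uchl1, a neuronal ubiquitin hydrolase, fell by 1.06 ± 0.17, the vesicular glutamate transporter Slc17a7 by 0.95 ± 0.19, the pyramidal cell factor Neurod6 by 0.92 ± 0.15, the receptor subunit Grin1 by 0.91 ± 0.22, Tubb3 by 0.91 ± 0.21, Thy1 by 0.78 ± 0.17, Nrgn by 0.73 ± 0.16 and Vamp2 by 0.62 ± 0.16. A dimmer probe set of Slc17a7 differed by only -0.04 ± 0.29, with arrays that overlap. Dimmer probe sets of Rbfox3, Thy1, Tubb3, Grin1 and Vamp2 had differences below 0, none of them past the threshold. Map2, a dendritic protein, was 14.90 and 14.94 in set 1 and 14.66 and 14.88 in set 3 and did not pass.

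As in the lists above, the neuronal calls depended on single arrays and on scaling, and they also depended on the field term. Without that term 0 of the 9 passed in limma's fit, against 12 of the 14 microglial and 16 of the 17 myelin calls. With a gene's probe sets averaged, 4 of the 9 neuronal calls held. Under scaling to a common median 0 of the 9 passed in limma's fit, and without the CA1 array of set 3 again 0 passed. In these settings 12 and 11 of the 14 microglial calls and 16 and 13 of the 17 myelin calls did. Without the CA3 array of set 3, 2 neuronal, 10 microglial and 15 myelin calls passed. The neuronal differences kept their sign under all these settings. Since the arrays are scaled to a common level, a gene's value is relative to the rest of the RNA, and a gain in glial RNA and a loss of neuronal RNA cannot be told apart.

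Interneuron and field genes followed the same direction. Of 15 interneuron genes, 4 were called lower and none higher. These were Npy, Calb2 by -1.66 ± 0.41, Penk by -1.09 ± 0.28 and Reln by -0.75 ± 0.17. The GABA enzyme Gad1, at 15.02 and 14.61 in set 1 and 14.71 and 14.80 in set 3, differed by -0.06 ± 0.17. Of the 8 CA1 markers, Mpped1 and Bcl11b were called lower, by -0.84 ± 0.17 and -0.84 ± 0.19. Other probe sets of Bcl11b differed by 0.74 ± 0.45 and by -1.67 ± 1.09, neither past the threshold, so the direction of this gene is not settled. Of the 13 CA3 and CA2 markers, Bok (-0.94 ± 0.18) and Pcp4 (-0.83 ± 0.17) were called lower. Without the field term none of these 4 field calls held, and 1 of the 4 interneuron calls did. All 4 field calls were lost under scaling to a common median and without the CA1 array of set 3. Of the interneuron calls, 1 held under a common median, 3 without the CA1 array of set 3 and 2 without its CA3 array. The dentate marker Calb1 rose by 0.83 ± 0.18, more in CA1 (1.23) than in CA3 (0.43), a difference between fields that was not tested, and its call was lost without the CA1 array of either set and under a common median. Of 19 glutamate and GABA receptor genes, only Grin1 was called, a call lost without either array of set 3 or the CA3 array of set 1, and the median was -0.30.

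Genes of hypoxia and glycolysis had a median of -0.44. Both set 3 arrays lay below both set 1 arrays in 11 of 18, against 20.6% of all genes. None was called, with 0 at an adjusted p under 0.05 in limma's fit. Car9, a carbonic anhydrase that low oxygen induces, was 10.76 and 9.68 in set 1, 6.07 and 5.78 in set 2, and 7.57 and 5.66 in set 3, a difference of -3.61 ± 1.24 (adjusted p = 0.173). Eno1, a glycolytic enzyme, was 17.31 and 17.13 in set 1, 16.64 and 16.63 in set 2, and 16.66 and 16.61 in set 3. For both genes set 1 stood apart from the other controls. None of 19 respiratory chain genes was called, and their median was -0.25.

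Few genes of other cell types that a slice could hold were called. None of 23 endothelial and mural genes was called, with a median of -0.02, nor any of 18 fibroblast genes (0.12), 8 blood cell genes (0.67) or 23 cell cycle genes (0.05). The summed intensity of the blood cell list was 809 and 1470 in set 1 and 3332 and 1279 in set 3, and Cd3e, which defines T cells, was at 5.96 and 8.60 and at 5.25 and 6.30. Of 12 choroid plexus and ependymal genes, only Enpp2 was called, with 3.54 ± 0.28. Enpp2 is also made by oligodendrocytes, and the choroid plexus marker Ttr differed by 1.50 ± 0.43 and did not pass (adjusted p = 0.0798). Of 25 matrix and scar genes, only Timp2 was called, at 0.72 ± 0.16, and it was lost without either array of set 3. A dimmer probe set of Timp2 differed by -0.67 ± 0.73, and the mean of its probe sets by 0.02.

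Of the 15 genes named in each direction for the size of their difference, further ones outside the lists that rose were Apobec1, the RNA editing enzyme, by 5.37 ± 0.98, Ms4a6bl1 by 5.25 ± 1.20, Plac8 by 4.91 ± 1.22 and Mpeg1, the macrophage pore-forming protein, by 4.53 ± 0.37. Second probe sets of Ms4a6bl1 and Mpeg1 differed by -0.72 ± 1.19 and -0.83 ± 1.01. Those that fell had differences of -5.11 ± 1.26 for C8h11orf97, -3.94 ± 1.02 for Ssc4d, -2.36 ± 0.53 for the presynaptic protein Prrt2, -2.29 ± 0.49 for the orexin precursor Hcrt and -2.12 ± 0.23 for the matrix protein Fbln2. The rest were Fxyd7 (-1.86 ± 0.23), the actin regulator Pfn2 (-1.58 ± 0.24), Syt17 (-1.54 ± 0.20), the kinase subunit Prkaca (-1.50 ± 0.38) and the kinase Brsk1 (-1.48 ± 0.27). A much brighter probe set of Pfn2 differed by only -0.61 ± 0.16 and did not pass in limma's fit (adjusted p = 0.052). A second probe set of Prrt2 differed by 0.03 ± 0.87 and one of Ssc4d by -2.56 ± 1.28, neither past the threshold. That of Syt17 passed, with -1.09 ± 0.23. The calls of Apobec1, Ms4a6bl1, Plac8, C8h11orf97, Ssc4d and Prkaca were lost without either array of set 3, those of Prrt2 and Hcrt without the CA1 array of either set, and that of Brsk1 without the CA3 array of either set. Ssc4d and Prkaca were also lost without either array of set 1, Plac8 without its CA3 array and C8h11orf97 without its CA1 array. Over the alternatives run, the difference ranged from 1.85 to 5.39 for Mpeg1 and from -2.46 to -1.79 for Fbln2. It ranged from -2.07 to -1.65 for Fxyd7, from -1.66 to -1.10 for Pfn2 and from -1.97 to -1.12 for Syt17.

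Xist, the RNA that silences an X chromosome in female cells, was also among them. Its called probe set was 4.52 and 5.44 in set 1, 10.12 and 10.23 in set 2, and 10.18 and 9.89 in set 3, a difference of 5.05 ± 1.06 (adjusted p = 0.0123). The call was lost without either array of set 3, although both lay far above set 1. Of its 3 other probe sets, 1 passed, with 3.12 ± 0.80, and 2 gave 2.76 ± 0.90 and 1.97 ± 1.23. Eif2s3y, a gene of the Y chromosome looked up after Xist was seen, was 13.39 and 13.33 in set 1, 11.07 and 10.95 in set 2, and 11.92 and 12.82 in set 3, and fell by 0.99 ± 0.24 (adjusted p = 0.0318), a call lost without the CA1 array of set 1 or of set 3 and under scaling to a common median. The Y-linked Rps4y2 and Sry did not pass, with differences of -1.96 ± 1.11 and -1.79 ± 1.24, and 2 probe sets of Uty differed by 0.72 ± 0.36 and 2.08 ± 1.23. The sex of the animals behind each pool is not given in the labels, and its part in the other differences was not tested.

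**Figure D5:**
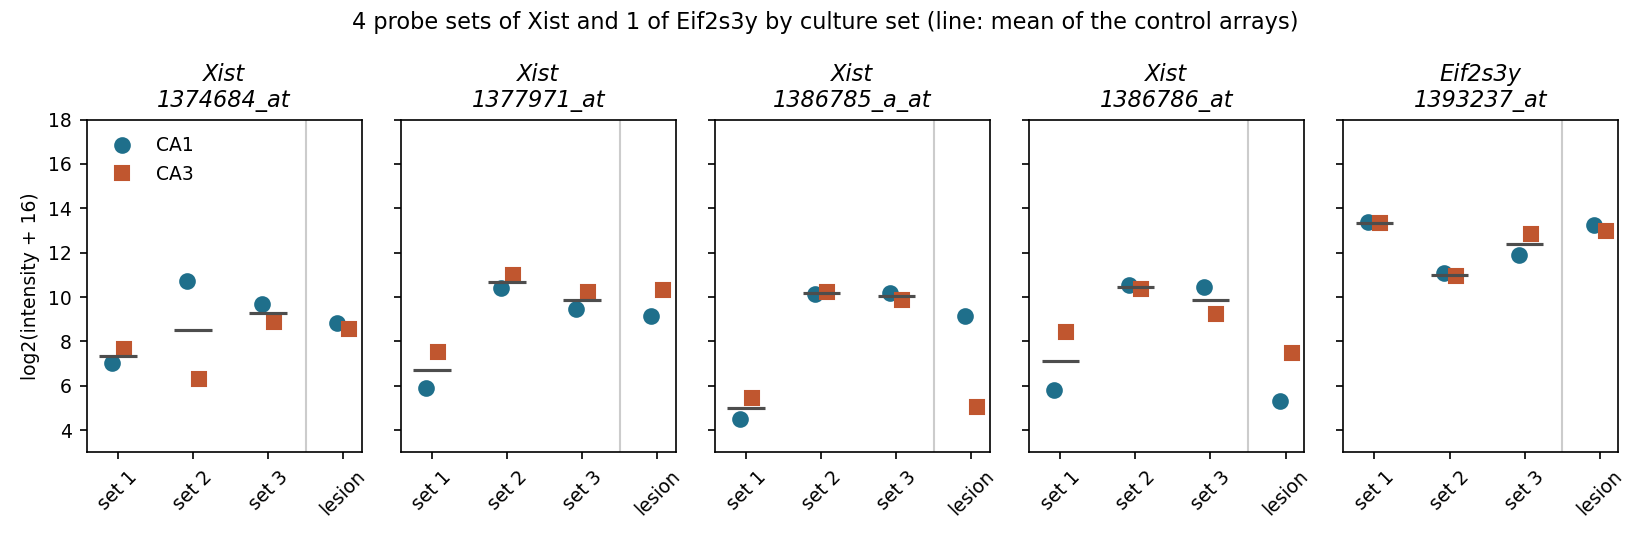
The plot shows log2(intensity + 16) of the 4 Xist probe sets and of Eif2s3y in every array by culture set, with CA1 as circles, CA3 as squares and the mean of the control arrays as a line. The called Xist probe set lies at 4.52 and 5.44 in set 1 and near 10 in sets 2 and 3, and Eif2s3y is highest among the controls in set 1, at 13.39 and 13.33.

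Set 2 entered the error of the fit but not the difference between sets 3 and 1. Of the 532 probe sets called higher, its mean lay between those of sets 1 and 3 in 459 (86.3%), beyond set 3 in 12 and beyond set 1 in 61. Of the 320 called lower, it lay between in 295 (92.2%). These probe sets were picked for a wide gap between sets 1 and 3, which by itself favours a place between them. The share over all probe sets was not computed, so these counts show no graded order of the sets. The named groups show different placings. Set 2 was intermediate for microglia, C1q and myelin, near set 1 for immediate early genes, reactive astrocyte genes and Hspa1a, near set 3 for Xist and Car9, and beyond set 3 for Sprr1a and Serpina3n.

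The 2 fields are the only repeat of the difference within each set. The difference had the same sign in CA1 and CA3 for 56.3% of all probe sets and for 62.8% of the brighter ones, those above the median level. The correlation of the differences across probe sets was 0.09 in all and 0.41 in the brighter ones, where probe sets are not independent replicates. In the microglial list the medians of the differences were 3.35 in CA1 and 2.86 in CA3, and in the myelin list 2.73 and 2.29.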

How the data were processed

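Expression was measured on 8 single-colour rat expression arrays. The authors deposited linear intensities, 1 per probe set and array. The 2% trimmed mean is close to 2501 in each array, so the deposited intensities were taken as already scaled. How probes were summarised, and with which software, is not given in the sources used here. No detection call entered the tests. Values were converted to log2(intensity + 16), which understates changes of dim probe sets. After removal of 57 control probe sets, 31042 were tested, of which 20826 have 1 gene symbol in the platform annotation.

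The 6 control arrays were fitted in limma 3.58.1 (R 4.3.3) with terms for set and field, with variances moderated along an intensity trend. The set 3 minus set 1 value equals the mean of its CA1 and CA3 differences. Benjamini-Hochberg adjustment ran over all probe sets, with a threshold of 0.05, and "called" means past it. A ± value is the fit's standard error. The fit was also run on simulated data whose errors were drawn from its own fitted variance model. Such data cannot test the intensity trend on which the calls rest.

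The 32 gene lists, the members and the naming rule were chosen with earlier results of these data known. A gene enters a list with its brightest probe set. Named are 5 marker genes and up to 6 members per list by p. Named too are the 15 largest called differences per direction, by a gene's probe set with the largest difference. Their arrays do not overlap, and their higher set mean exceeds the overall median. Other members are named because they passed, define a cell type or serve as contrast, and were chosen after their values were seen. No set test was run. In all, 18 alternatives were tried.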

Additional observations from a re-analysis of the deposited data

Results flagged for a closer look

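In 5 lists the median difference between sets 3 and 1 had opposite signs in CA1 and CA3. The CA1 minus CA3 difference of the medians was 0.29 for injury and axon regeneration, 0.30 for fibroblasts and meninges, 1.63 for blood cells, 1.39 for dentate gyrus markers and 0.38 for the cell cycle. With 1 array a side in each field these differences were not tested. The lesion arrays were not part of the comparison. In both of them the list median lay above all 6 control arrays for 4 lists, and the lower of the 2 values, over the set 1 mean, was 0.91 for lysosome, 0.41 for astrocytes, 0.61 for dentate gyrus markers and 0.50 for the cell cycle.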

How the results depend on the processing

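Of 852 called probe sets (532 higher, 320 lower), those tested kept their sign under each of the 17 alternatives run on probe sets. Several of these alternatives change only the error estimate or the probe sets tested, so the difference and its sign could not move. The fit of 4 arrays, the fit of all 8 arrays and the fit without the field term are among them. The count moved most with the error model. Without the intensity trend 0 were called, 0 higher and 0 lower, and 2481 had an unadjusted p under 0.05. Without the field term 262 were called (233 and 29), with a common median 336 (294 and 42), and with a gene's probe sets averaged 288 genes (198 and 90). With only the 4 arrays of sets 1 and 3, 493 were called lower. Leaving out each control array in turn gave 235 to 1356 calls, 174 to 859 higher and 57 to 603 lower. The lowest counts came without the CA3 array of set 3 (235) and the CA1 array of set 3 (267), and the highest without the CA1 array (1356) and the CA3 array (1286) of set 1. In the fits without an array of set 1, and in the fit of 4 arrays, the error came wholly from the intensity trend. A call in these fits therefore uses no spread of the probe set's own. Among named genes, Gap43 turned to 0.49 under the mean of its probe sets. The medians of 7 lists changed sign under at least 1 alternative (injury, fibroblasts, endothelium, blood cells, dentate gyrus, cell cycle and the integrated stress response). Causes were not tested. The field term pairs the CA1 and the CA3 arrays across sets, so the 852 calls are those of the paired fit and the 262 those of the unpaired one. Precision is limited by the number of arrays and, for dim probe sets, by their signal.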

Other observations

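The lesion arrays, which carry the number 1, lay near set 3 rather than near the set 1 controls in several lists. The medians over the set 1 mean in CA1 and CA3 were 3.18 and 2.99 for microglia and macrophages and 2.87 and 2.68 for myelin, against 3.03 and 2.85 and 2.77 and 2.50 in set 3. Cldn11 was at 16.47 and 16.78 and C1qc at 15.17 and 14.52 in the lesion arrays. Lcn2 was at 14.14 and 14.23, and Sprr1a and Serpina3n were low, at 8.01 and 8.85 and at 9.74 and 8.15. Immediate early genes did not share this, with lesion medians of -0.36 and -0.23. Sex-linked probe sets were mixed. Eif2s3y was at 13.24 and 13.001 in the lesion arrays, nearer set 1 (13.39 and 13.33) than set 3 (11.92 and 12.82), and the called Xist probe set was at 9.16 and 5.04 against 4.52 and 5.44 in set 1 and 10.18 and 9.89 in set 3. Whether any array is mislabelled was not tested. These values are given as a description, with 1 lesion array a field and no test.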
